A study of Mus musculus with 32 samples.

Results

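Endothelium selected from tumours that did not respond to sunitinib was compared with the rest of the same tumours. The comparison takes the 4 arrays labelled as sunitinib resistant EC fraction and the 4 labelled as sunitinib resistant bulk fraction, 8 of the 32 arrays of the series, and sets the fractions against each other within each numbered mouse. Tumours of 4T1-Luc, a luciferase-marked line of mouse mammary carcinoma, grew from cells injected into the fat pad of a mammary gland in Balb/C females aged 8 weeks. The mice of these 8 arrays all received 40 mg/kg sunitinib and were called resistant by their response up to day 8, and their tumours were resected at 1300 mm3. For the EC fraction, tissue digested with collagenase in the presence of actinomycin D and DNase was passed over magnetic beads that carry an antibody to PECAM-1, and the digested tissue that remained was taken as bulk. Each fraction of each tumour has 1 single-colour Agilent array. As other tumours of the same size, 4 sunitinib sensitive mice, with the same dose, and 4 mice given vehicle alone, each with an EC and a bulk array, are used below only to ask whether the difference between fractions was particular to resistant tumours.

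Sunitinib inhibits several receptor tyrosine kinases, among them the receptors for VEGF, PDGF, stem cell factor and CSF1. VEGF receptors sit mainly on endothelial cells, where VEGF drives sprouting by tip cells, while the Notch, angiopoietin and BMP pathways steer sprouting, quiescence and vessel type. PECAM-1, the antigen of the selection, is a junctional protein of endothelial cells that also occurs on platelets and on part of the leukocytes, so a bead fraction can carry cells other than endothelium.

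The unit of all values, called the level, is the log2 processed signal on a scale where 0 is the array's 75th percentile. A difference is the EC level minus the bulk level of the same mouse. A level describes 1 probe and cannot be set against the level of another gene. A gene was called when the within-mouse differences passed limma's test at an adjusted p of 0.05, with the gene represented by its brightest probe. In bulk RNA of a fraction, fewer cells of a type and less RNA per cell cannot be told apart.

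The bulk array of mouse 2 stood apart from the other arrays of the comparison. On it 83.2% of probes were well above background, against 55.3 to 58.5% on the other bulk arrays and 46.1 to 52.8% on the EC arrays, and the SD of its negative control spots was 15.5, against 2.77 to 4.6 on the other bulk arrays. The EC minus bulk differences of mouse 2 correlated with those of the other mice at 0.353 to 0.431 over the genes tested, whereas mice 3 and 4 correlated at 0.915, which is given as a description over genes that share their arrays. The main results are therefore given with and without mouse 2. All 8 arrays lay on 1 slide, but the EC arrays filled rows 3 and 4 and the bulk arrays rows 1 and 2, so fraction and row cannot be told apart; the labels say nothing on how arrays were placed.

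The selection was visible in both markers of the label. Pecam1, the selected antigen, had levels of 1.88, 0.96, 1.48 and 1.65 in the EC fractions of mice 1 to 4, against -1.15, -0.26, -1.50 and -1.40 in their bulk fractions. Cdh5, the adhesion molecule of endothelial junctions, had 4.20, 3.61, 3.39 and 3.94 in EC fractions, against -0.23, -1.12, -0.43 and -0.51 in bulk. Neither gene's fractions overlapped, and each EC array was above all bulk arrays. The Pecam1 difference was 2.57 (SE 0.36, limma adjusted p = 0.00697) and the Cdh5 difference 4.36 (SE 0.25, adjusted p = 0.000615), and without mouse 2 they were 3.02 and 4.23, each with an adjusted p of 0.00727.

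Promoters were taken from a set of RefSeq promoters that does not cover all genes. The vascular genes with the largest differences in that set were Glycam1 and Ackr1, genes of venules that let leukocytes leave the blood, and Robo4, a guidance receptor of endothelium. Mmrn2, a vessel gene with a larger difference than Robo4, had no entry in it. The promoters of Glycam1, Ackr1 and Robo4, 250 bases before to 50 after the gene start in build GRCm38.p6, are shown. They belong to genes among those that set the EC fraction apart most. Glycam1 is on the minus strand at chr15:103565032-103565331, Ackr1 on the minus strand at chr1:173333454-173333753 and Robo4 on the plus strand at chr9:37401722-37402021. Capitals mark CAGGAAG or its reverse complement, letters that ETS factors, a family with roles in endothelial genes, can bind:
Glycam1: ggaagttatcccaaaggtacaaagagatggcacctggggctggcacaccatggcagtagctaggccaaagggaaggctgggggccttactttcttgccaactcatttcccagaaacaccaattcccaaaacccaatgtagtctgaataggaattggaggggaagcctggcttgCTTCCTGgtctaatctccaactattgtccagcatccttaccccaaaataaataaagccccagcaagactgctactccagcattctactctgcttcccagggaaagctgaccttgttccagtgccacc
Ackr1: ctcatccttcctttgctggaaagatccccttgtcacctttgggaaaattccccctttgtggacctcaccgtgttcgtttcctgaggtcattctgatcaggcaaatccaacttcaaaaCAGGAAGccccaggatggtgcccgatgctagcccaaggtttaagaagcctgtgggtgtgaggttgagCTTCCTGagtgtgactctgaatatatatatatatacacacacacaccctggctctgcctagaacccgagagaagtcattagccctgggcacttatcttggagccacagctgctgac
Robo4: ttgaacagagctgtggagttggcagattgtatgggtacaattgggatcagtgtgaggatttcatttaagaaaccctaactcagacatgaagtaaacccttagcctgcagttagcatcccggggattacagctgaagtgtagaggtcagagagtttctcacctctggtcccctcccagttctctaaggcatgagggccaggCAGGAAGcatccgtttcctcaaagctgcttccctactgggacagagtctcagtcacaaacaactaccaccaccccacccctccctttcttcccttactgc

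Of the 30 called genes of the endothelial identity and adhesion lists below, 18 had an entry, with 20 promoters in all. CAGGAAG stood on either strand in 9 of these 20 promoters and in 13.3% of all 32851 promoters of the table. It was 1 of 12 strings counted, and it was taken to be marked after its matches had been seen, so its share here is a description of these promoters and no evidence for it. Of the other strings, GGAAG and AGGAAG, which CAGGAAG contains, were in 17 and 13 of the 20 promoters, against 71.4 and 35.4% of all. CGGAAG, another form with the same core, was in 1 of the 20, against 16.9% of all, and CCGGAAG in 0, against 8.9%. GATA was in 12, against 57.9%, GATAAG in 4, against 7.4%, and ACAAAG, a string read by SOX factors, in 7, against 18.7%. CAGGAA was in 13, against 30.6%, ACAGGAAG in 5, against 3.6%, AACAAAG in 2, against 5.9%, and TTCCNGGAA in 1, against 1.1%. The strings overlap each other, and a match is no binding site.

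Of 20145 named genes on the array, 14243 were bright enough to be tested. limma called 1403 of them higher in EC fractions, 9.85% of those tested, and 884 lower, 6.21%. Without mouse 2 the calls were 558 higher, 3.92%, and 200 lower, 1.4%, of which 441 and 182 were also called with all mice in the same direction and 0 in the opposite one. The calls that held with each mouse left out in turn were 361 higher and 118 lower. The median difference of all tested genes was -0.05, and it was 0.29 in mouse 2 and between -0.13 and -0.04 in the others. The levels of the fractions did not overlap in 24.6% of the genes tested.

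**Figure D1:**
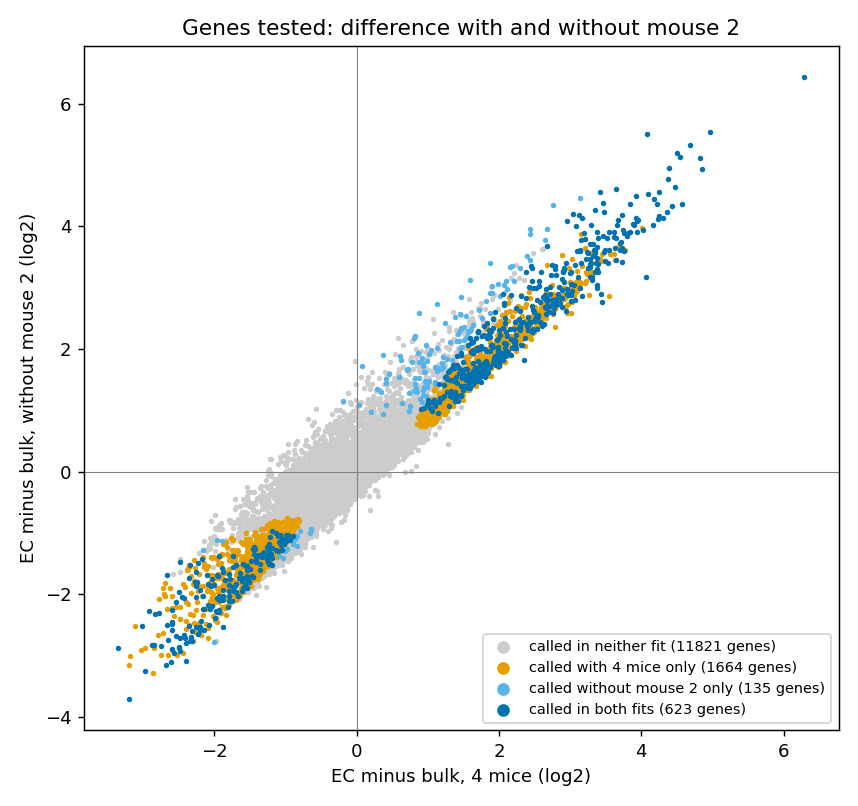
Each point is a gene tested, with its EC minus bulk difference (log2) over 4 mice on the x axis and without mouse 2 on the y axis, and colours show in which fit limma called it. The 623 genes called in both fits lie along the diagonal at both ends, 1664 were called with 4 mice only, and the 135 called without mouse 2 only lie mostly above 0.

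Genes that define endothelium gave the highest count of rises of the 34 lists examined, which differ in length; by share, 13 of 14 macrophage genes tested and both lymphatic genes tested also rose. Of 28 listed genes of endothelial identity and junctions 27 were tested, and 23 rose and 0 fell. The median difference of the 27 was 3.55, against -0.05 over all genes, and it was 4.03, 3.18, 3.36 and 3.89 in mice 1 to 4. Without mouse 2, 23 were called higher, 22 of them the same genes, and 21 held with each mouse left out. Calcrl was too dim to test.

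Mmrn2, an extracellular matrix protein of vessels, had levels of 5.36, 4.48, 4.34 and 4.83 in EC fractions, against 0.13, -0.13, -0.18 and -0.22 in bulk, with a difference of 4.85 (SE 0.25, limma adjusted p = 0.000615). Robo4 had 5.19, 4.55, 4.38 and 4.55 in EC fractions, against 0.69, -0.64, 0.31 and 0.00 in bulk, with a difference of 4.58 (SE 0.27). Ramp2, which forms the adrenomedullin receptor with Calcrl, had 4.86, 4.74, 4.25 and 4.56 in EC fractions, against 0.51, 0.27, 0.57 and 0.08 in bulk. In these genes the EC arrays lay together, the bulk arrays lay together and a wide gap separated them, in mouse 2 as in the others. Tek, the angiopoietin receptor, differed in this: it had -0.56, -1.89, -1.29 and -0.92 in EC fractions, against -4.90, -1.82, -5.36 and -5.07 in bulk. Its difference was -0.07 in mouse 2 and 4.07 to 4.34 in the others, so that the fitted 3.12 (SE 0.71, adjusted p = 0.027) became 4.19 (adjusted p = 0.00727) without mouse 2, while without mouse 1 it was not called (adjusted p = 0.0895). Arhgap31, a regulator of small GTPases, rose by 1.09 with all mice and was not called without any 1 of them, with adjusted p between 0.0588 and 0.09. The listed genes that were not called were Cyyr1 at 3.14, Eng, a BMP co-receptor, at 0.57, Podxl at 0.31 and Tm4sf1 at -0.68, and without mouse 2 Cyyr1 was called.

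**Figure D2:**
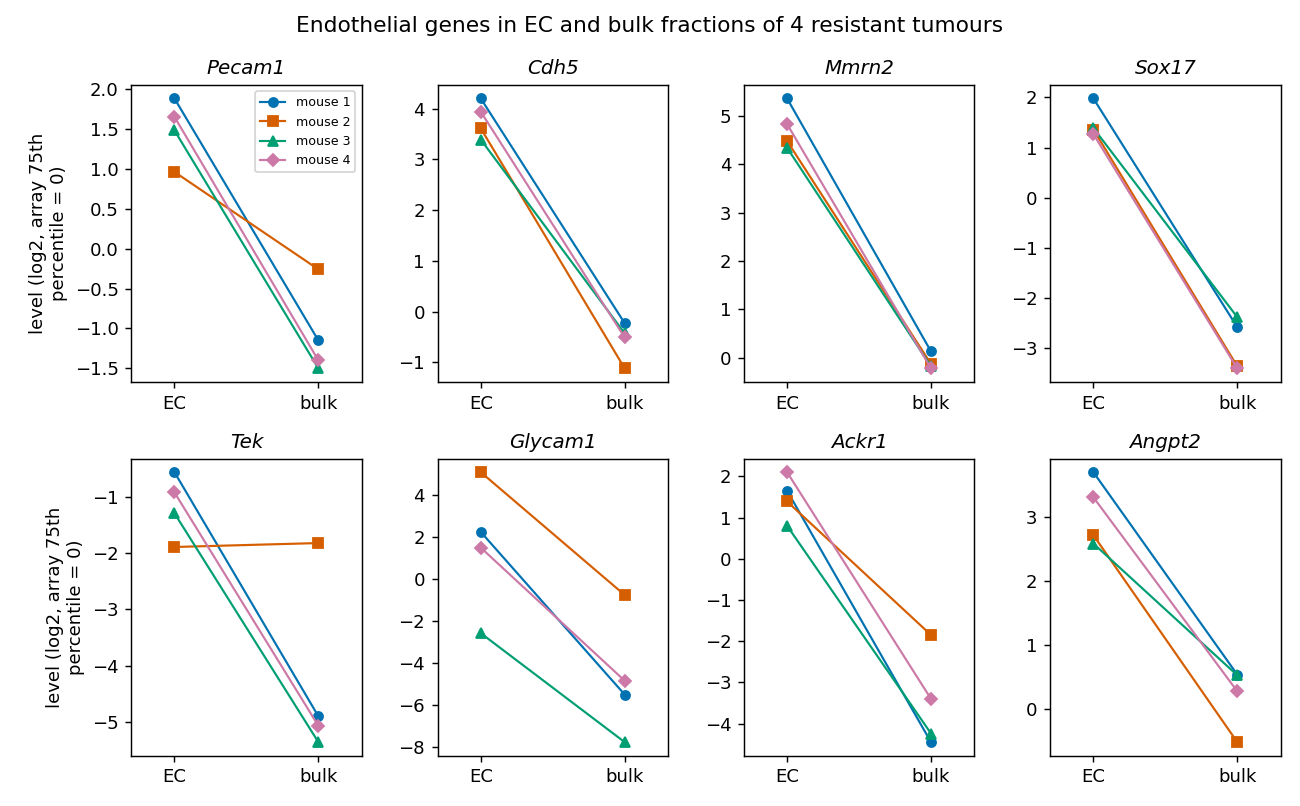
Levels (log2, the array's 75th percentile at 0) of 8 endothelial genes in the EC fraction (left) and bulk fraction (right) of each resistant tumour, with a line per mouse. Every line falls towards bulk except that of Tek in mouse 2, and the bulk value of mouse 2 is the highest of the bulk values for Pecam1, Tek, Glycam1 and Ackr1.

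Transcription factors of endothelium divided into a group that rose and a group that did not pass the test. All 22 listed were tested, 12 rose and 0 fell, and 11 of the calls stood without mouse 2, Lyl1 being the exception (adjusted p = 0.0606). The risers were Sox17, Sox7 and Sox18, SOX factors of vessel development, Erg and Fli1, ETS factors of endothelial identity, Meox1 and Meox2, homeobox factors, and Ldb2, Tal1, Gata2, Lyl1 and Hhex, with differences between 2.31 and 4.43. Erg was not called without mouse 1 (adjusted p = 0.0733). Sox17 had levels of 1.98, 1.36, 1.39 and 1.27 in EC fractions, against -2.58, -3.36, -2.38 and -3.40 in bulk, with a difference of 4.43 (SE 0.26, limma adjusted p = 0.000615). Its other tested probe gave 3.61 (SE 0.36). Among factors not called, Klf2, induced by blood flow, had a difference of 0.93, Klf4 0.47, Ets1 0.38, Nr2f2, a factor of veins, 0.62, Epas1, a hypoxia-inducible factor, 0.01, and Foxc2, a factor of lymphatic vessels, -1.23.

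Adhesion and venule genes carried the largest rise of all genes tested. Glycam1, a ligand for L-selectin, had levels of 2.26, 5.11, -2.57 and 1.51 in EC fractions, against -5.50, -0.75, -7.77 and -4.84 in bulk. The levels overlapped between fractions because tumours differed widely, but within each mouse EC was higher, by 7.76, 5.86, 5.20 and 6.34. The fitted difference was 6.29 (SE 0.41, limma adjusted p = 0.000615), and without mouse 2 it was 6.43 (adjusted p = 0.0139). Ackr1, an atypical chemokine receptor of venules, had 1.65, 1.39, 0.80 and 2.10 in EC fractions, against -4.45, -1.85, -4.24 and -3.40 in bulk, with a difference of 4.97 (SE 0.45, adjusted p = 0.00139). Of 13 listed genes 12 were tested, 7 rose and 0 fell, with a median difference of 1.75, and 6 of the calls stood without mouse 2. Jam2, a junctional adhesion molecule, Selp, the selectin of activated endothelium and platelets, Cd36, a fatty acid carrier, and Madcam1, a ligand for lymphocyte homing, rose by 3.02, 2.85, 2.67 and 1.93, and Icam1 by 1.56, a call that was lost without mouse 2 or mouse 3 (adjusted p = 0.0592 and 0.0692). Vcam1, another leukocyte ligand, had 0.75 and Sele, an induced selectin, 0.87, and neither was called with all mice, whereas Sele was called without mouse 2.

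Several of the other largest rises were in genes not on these lists. Gpr1, a chemerin receptor, Tacr1, the substance P receptor, and Tmem252 were not well above background on any bulk array, and their signal was at least 14.9-fold, at least 10.5-fold and at least 16.3-fold higher in EC fractions. For these bounds, the bulk mean was taken from the dimmest signal that passed the background call on each array, or from the probe's own signal where that was brighter. Gpr1, Tacr1 and Tmem252 passed the filter for testing through the 4 EC arrays alone, which favours this direction, so their calls are a description. Fabp4, a fatty acid binding protein of adipocytes and capillaries, had levels of 5.86, 5.57, 5.08 and 5.88 in EC fractions, against 1.43, 0.99, 1.46 and 1.57 in bulk, a difference of 4.24 (SE 0.26, limma adjusted p = 0.000615). It was the only called gene of 10 listed for adipocytes, of which 5 were tested and Adipoq, Lep, Plin1, Cidec and Pck1 were too dim. Grrp1 rose by 4.38 (SE 0.37) and Slco2b1, an organic anion carrier, by 4.48 (SE 0.30), while Vsig4, a complement receptor of macrophages, rose by 4.55 (SE 0.52) and Gm525 by 4.50 (SE 0.52). All genes of this paragraph so far held with each mouse left out. Gpr182, a scavenger receptor for chemokines on endothelium, was among the largest rises without mouse 2, at 5.51 (adjusted p = 0.00829), while its difference was -0.21 in mouse 2 and the fit of all mice gave 4.08 (SE 0.95, adjusted p = 0.0298), which was not called without mouse 1 (adjusted p = 0.096).

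Among genes induced by VEGF or enriched in tip cells, 20 of 21 listed were tested, 13 rose and 0 fell, with a median difference of 1.68, and 9 of these were called without mouse 2. Esm1, a secreted proteoglycan of tip cells, had levels of 4.64, 2.61, 3.26 and 3.59 in EC fractions, against 0.95, -0.10, -0.20 and 0.04 in bulk, a difference of 3.36 (SE 0.26, limma adjusted p = 0.000798). Angpt2, the ligand that destabilises vessels through Tek, had 3.69, 2.71, 2.58 and 3.30 in EC fractions, against 0.54, -0.51, 0.53 and 0.28 in bulk, a difference of 2.86 (SE 0.28). Fractions did not overlap in either gene. Aplnr, the apelin receptor, rose by 3.20, its ligand Apln by 2.05, Pdgfb, which recruits pericytes, by 1.65 and Cxcr4, a chemokine receptor, by 2.09, which was not called without mouse 2 (adjusted p = 0.063). Unc5b, a netrin receptor of tip cells, and Ackr3, a scavenger of CXCL12, were not called, with -0.81 and -0.47.

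Receptors that sunitinib inhibits did not move together. Flt1, VEGF receptor 1, had levels of 3.96, 2.42, 2.64 and 3.44 in EC fractions, against 1.78, 0.18, 1.47 and 1.69 in bulk, and rose by 1.83 (SE 0.27, limma adjusted p = 0.00777). Kdr, the main signalling receptor for VEGF, had 2.54, 3.47, 3.31 and 3.50 in EC fractions, against 2.37, 2.69, 2.66 and 1.89 in bulk. The fractions overlapped and the difference of 0.80 (SE 0.29) had an adjusted p of 0.103. Its other probe gave 4.52 (SE 0.31, adjusted p = 0.0087 over all probes), so the probes of Kdr disagree on the size of the difference and no single value for the gene can be given. Flt4, VEGF receptor 3, was too dim to test, as was Ret. Kit, the stem cell factor receptor, rose by 1.69 (SE 0.23) and held with each mouse left out. Csf1r, the receptor of macrophages, had 6.84, 8.41, 8.70 and 8.47 in EC fractions, against 5.33, 5.21, 5.55 and 4.20 in bulk, with a difference of 3.03 (SE 0.42, adjusted p = 0.00686), or 2.98 (adjusted p = 0.057) without mouse 2. The PDGF receptors Pdgfra and Pdgfrb were not called, with -1.06 and 0.48, and Flt3, a receptor of dendritic cell precursors, fell by 1.59 (adjusted p = 0.0221), a call lost without mouse 1, 2 or 3, with adjusted p between 0.0505 and 0.0799.

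Ligands of these receptors lay on both sides. Of 14 listed, all tested, 3 rose and 2 fell, with a median of -0.36, and without mouse 2 the calls were 2 and 1. Over all genes tested 9.85% were called higher and 6.21% lower, so these counts say little about the list. Pdgfb rose by 1.65 on its brightest probe and held with each mouse left out, while its other probe gave 0.91 (SE 0.41) and was not called (limma adjusted p = 0.222 over all probes). Pgf, placental growth factor, rose by 1.23 (SE 0.27), with limma adjusted p between 0.0502 and 0.0765 without mouse 1, 3 or 4. Vegfa had levels of 3.77, 4.33, 5.24 and 5.56 in EC fractions, against 3.68, 2.06, 3.40 and 3.98 in bulk, and its difference of 1.44 (SE 0.37, limma adjusted p = 0.0402) was 1.17 (adjusted p = 0.105) without mouse 2 and 0.09 in mouse 1. It was not called without mouse 3 either (adjusted p = 0.0991). Vegfb, a ligand of Flt1, fell by 1.11, was also called without mouse 2, and was not without mouse 1, 3 or 4 (adjusted p between 0.0748 and 0.152). Vegfd, a lymphatic growth factor, fell by 1.92 (SE 0.47), and was well above background on 1 EC array; without mouse 2 it had -1.37 (adjusted p = 0.0726).

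Notch, angiopoietin and BMP genes rose in part. Of 13 Notch pathway genes tested, 5 rose and 0 fell: the receptors Notch4 (2.46, SE 0.27) and Notch1 (2.27, SE 0.35), the ligands Dll4 (2.07, SE 0.49) and Jag2 (1.27) and the target Hey1 (1.38, SE 0.24). Without mouse 2 Notch1 had 2.37 (limma adjusted p = 0.056), and the difference of Dll4, 0.04 in mouse 2, was 2.75 (adjusted p = 0.0116). Of the 5, Notch4 alone held with each mouse left out: Dll4 was not called without mouse 1 (adjusted p = 0.0983), Hey1 without mouse 3 (0.0663), nor Jag2 without mouse 1, 3 or 4 (0.0621 to 0.107). In the angiopoietin, BMP and TGF-beta list 6 of 19 genes tested rose and 0 fell, 4 of them also called without mouse 2, led by Bmp4, a ligand of the pathway, at 3.32 (SE 0.27, adjusted p = 0.000936), and including Tie1 at 3.01 (SE 0.23) and Acvrl1, the endothelial receptor for BMP9, at 2.30, which was not called without mouse 2 (adjusted p = 0.0551). Angpt1, the opposing ligand from mural cells, had -1.01 and was not called.

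Vasoactive and other secreted factors gave 13 rises and 2 falls among 23 genes, against 8 rises and 1 fall without mouse 2, and 5 rises held with each mouse left out. Nos3, the endothelial nitric oxide synthase, had levels of 3.55, 3.45, 3.32 and 3.56 in EC fractions, against 0.80, -0.40, 0.69 and 0.52 in bulk, a difference of 3.07 (SE 0.28, limma adjusted p = 0.00143). Edn1, the precursor of endothelin, rose by 2.73 (SE 0.38), with 1.30 in mouse 2 and 3.12 to 3.27 in the others. Cxcl12, a chemokine, rose by 2.95 (SE 0.24) on its brightest probe, while its other probe gave -0.37 (SE 0.45), so its probes disagree. Adm, the adrenomedullin peptide, rose by 1.63 (SE 0.29) over mice 1, 3 and 4, since its spot on the bulk array of mouse 2 was left out as an outlier; without mouse 1 or mouse 3 its adjusted p was 0.0592 and 0.0578.

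Basement membrane genes rose in part, with 6 of 14 tested called higher and 0 lower. They were Nid1 and Nid2, nidogens that link laminin to collagen, Lama4, the laminin chain of vessels, Col4a1 and Col4a2, the common type IV collagen chains, and Sparc, a matrix-binding glycoprotein. Col4a2 had levels of 4.99, 4.04, 4.45 and 4.68 in EC fractions, against 3.16, 2.19, 3.02 and 3.24 in bulk, a difference of 1.64 (SE 0.24, limma adjusted p = 0.00721), and Nid2 rose by 3.08 (SE 0.30). All 6 held with each mouse left out. Nid1 has 2 further probes, which gave 2.30 (SE 0.73) and 0.82 (SE 0.53) and were not called.

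Mural cells, the pericytes and smooth muscle around vessels, showed weaker differences. Of 14 genes tested 3 rose and 0 fell: Mcam, shared with endothelium, by 1.87 (SE 0.27), Rgs5, also on the tip cell list, by 1.71 (SE 0.36) and Higd1b by 1.56 (SE 0.37). Over all genes tested 9.85% were called higher, so this count says little about mural cells. Only Mcam was still called without mouse 2, with limma adjusted p of 0.0654 for Rgs5 and 0.0639 for Higd1b (and 0.0613 and 0.0853 without mouse 1), whereas Myh11, smooth muscle myosin, and Des, an intermediate filament, were then called instead. Pdgfrb, the defining receptor of pericytes, had levels of 2.14, 0.72, 0.62 and 1.21 in EC fractions, against 1.04, -0.63, 1.00 and 1.36 in bulk. Its sign differed between mice, 1.10 and 1.35 in mice 1 and 2 and -0.38 and -0.15 in mice 3 and 4. None of 13 fibroblast and matrix genes was called in limma's fit of all mice or without mouse 2, with a median of -0.27 and values between -1.77 for Dpt and 0.75 for Fap; their level averaged 1.87 to 3.19 on the EC arrays and 2.11 to 3.36 on the bulk arrays.

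Lymphatic markers were mostly dim. Of 7 listed genes 2 were tested. Lyve1, a hyaluronan receptor of lymphatic vessels and of some macrophages, rose by 3.89 (SE 0.30, limma adjusted p = 0.000788) and held with each mouse left out, and Pdpn, podoplanin, rose by 1.80 (SE 0.33), a call lost without mouse 2 (adjusted p = 0.0626), and had 1.10 (SE 0.41) on its other probe. Prox1, the defining factor of lymphatic endothelium, Flt4, Mmrn1 and Reln were too dim to test.

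Macrophage genes were also higher in EC fractions, by somewhat less than endothelial identity genes (median 3.55), and with a spread between mice. Of 16 listed 14 were tested, and 13 rose, with a median of 3.13, which was 1.46, 3.30, 3.52 and 4.40 in mice 1 to 4. Mrc1, the mannose receptor, had levels of 3.32, 4.71, 5.63 and 5.78 in EC fractions, against 1.33, 0.46, 1.64 and 0.95 in bulk. Adgre1, the F4/80 antigen, had 2.98, 4.71, 5.24 and 4.92 in EC fractions, against 1.33, 0.85, 1.14 and 0.05 in bulk. EC fractions were higher in each mouse without overlap, and the EC fraction of mouse 1 was the lowest. The differences were 3.77 (SE 0.45, limma adjusted p = 0.00432) and 3.62 (SE 0.49, adjusted p = 0.00637). Without mouse 2 the median was 3.09 and the differences 3.61 and 3.54, but their adjusted p were 0.0503 and 0.0573, and 12 of the 13 calls of the list were lost. The mean level of the tested macrophage genes was 3.85, 5.38, 5.84 and 5.54 on the EC arrays, against 2.38, 2.41, 2.48 and 1.37 on the bulk arrays. The part of these cells in the other rises was not tested.

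Genes of the lysosome, abundant in macrophages, and chemokines ran alongside. Of 20 lysosome genes tested 9 rose and 0 fell, with a median of 0.94, led by the protease Ctss at 2.76 (SE 0.41) and the hexosaminidase chain Hexa at 2.43 (SE 0.36), and none was called without mouse 2, where Ctss had 2.59 (limma adjusted p = 0.0592). Of 21 chemokine and cytokine genes tested, 14 rose and 3 fell, and without mouse 2 only 4 were called higher and 0 lower. Ccl8, a monocyte attractant, had levels of 5.85, 7.60, 7.19 and 6.95 in EC fractions, against 3.00, 2.80, 2.76 and 1.83 in bulk, a difference of 4.30 (SE 0.39, adjusted p = 0.00139). Ccl7, another, rose by 3.38 (SE 0.40), Ccl12 by 3.68 (SE 0.46) and Il6, an inflammatory cytokine, by 2.77 (SE 0.34). Of these Ccl8, Ccl7 and Il6 held with each mouse left out, and Ccl12 had an adjusted p of 0.0527 without mouse 2. The falls were in Csf2, Lif and Csf3, a hematopoietic growth factor for granulocytes, between -1.60 and -1.13, and none of them was called without mouse 2 (adjusted p between 0.0554 and 0.0615). The list's median was 0.38 in mouse 1 and 2.06 to 2.24 in the others.

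**Figure D3:**
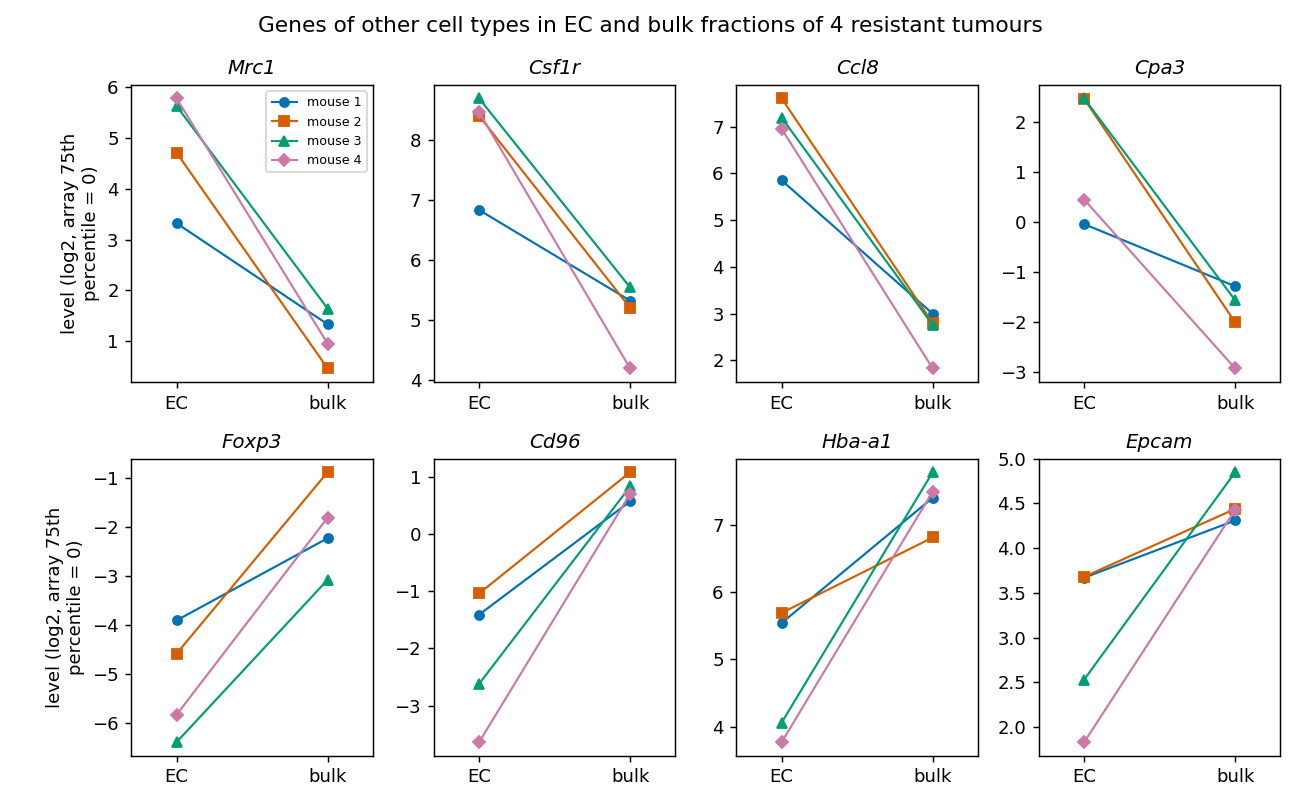
Levels (log2, the array's 75th percentile at 0) of 8 genes of other cell types in the EC fraction (left) and bulk fraction (right) of each resistant tumour, with a line per mouse. Mrc1, Csf1r, Ccl8 and Cpa3 lie higher in EC and Foxp3, Cd96, Hba-a1 and Epcam lower, with no overlap between fractions in any of the 8. They were picked from called genes, and fractions did not overlap in 24.6% of all genes tested. Other called genes, among them Pf4, Ngp, Camp, Mpo and Prg2, did overlap. The line of mouse 1 is the flattest for Mrc1 and Csf1r.

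Lymphocyte genes were the main group of falls. Of 20 listed T and NK cell genes 19 were tested, 18 fell and 0 rose, with a median of -2.20, or -1.54, -1.04, -2.93 and -3.10 in mice 1 to 4. Without mouse 2, 12 were called lower and the median was -2.54, and 10 held with each mouse left out. Cd8a, the co-receptor of cytotoxic T cells, fell by 2.31 and held with each mouse left out, and Cd3e, a chain of the T cell receptor complex, fell by 1.56, with an adjusted p of 0.0655 without mouse 3. Ctla4, an inhibitory receptor, had levels of -1.39, -2.87, -3.96 and -3.95 in EC fractions, against 0.22, 0.42, -0.35 and 0.31 in bulk, a difference of -3.19 (SE 0.42, limma adjusted p = 0.00603, and 0.0545 without mouse 2). Foxp3, the factor of regulatory T cells, had -3.91, -4.59, -6.40 and -5.84 in EC fractions, against -2.23, -0.88, -3.08 and -1.81 in bulk, and was well above background on 1 EC array. Its difference was -3.19 (SE 0.40, adjusted p = 0.00518), with -3.01 (adjusted p = 0.0504) without mouse 2. Ifng, interferon gamma, fell by 2.32 and was among the 6 genes not called without mouse 2 (adjusted p = 0.0501). Cd96, an NK and T cell receptor, fell by 2.97 (SE 0.42) and Pdcd1, the PD-1 receptor, by 2.56 (SE 0.45), and both held with each mouse left out. Klrb1c, a gene of NK cells, was not well above background on any EC array and was at least 1.9-fold lower there. It passed the filter for testing through the 4 bulk arrays alone, and its bulk level was -1.34 in mouse 2, the highest of them. Cd4 was the gene not called, at -0.12.

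The other largest falls were in dim genes. Lipg, endothelial lipase, had levels of -5.41, -5.85, -6.89 and -6.01 in EC fractions, against -3.30, -1.11, -3.66 and -2.70 in bulk, the bulk array of mouse 2 being the highest. It was not well above background on any EC array and at least 2.89-fold lower there. Lax1, a lymphocyte adaptor, was at least 4.15-fold lower in EC fractions, Lingo3 at least 3.4-fold and Ppp2r2c, a phosphatase subunit, at least 2.34-fold, and all 4 held with each mouse left out. Wdr95 was at least 2.28-fold lower with all mice (limma adjusted p = 0.0147, and 0.0685 without mouse 2). Lipg, Lax1, Lingo3, Ppp2r2c and Wdr95 were well above background on 0 EC arrays and 4 bulk arrays. They passed the filter for testing through bulk alone, which favours this direction, so their calls are a description. B4galnt4 and Il17a, the cytokine, were well above background on 1 EC array each, with differences of -3.03 (SE 0.42) and -2.98 (SE 0.57), and Syt10 on all, with -2.86 (SE 0.53), and without mouse 2 their adjusted p were 0.0568, 0.079 and 0.0568. In the falls without mouse 2, the T cell chemokine Xcl1 had -2.93 (adjusted p = 0.0385) and the haemoglobin gene Hbb-b2 -3.16 (adjusted p = 0.0471).

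Erythroid genes also fell, 4 of 7 tested and 0 rising, with a median of -2.52. Hbb-bs, a beta globin gene, had levels of 0.99, 1.02, -0.72 and -1.33 in EC fractions, against 3.80, 2.66, 3.13 and 3.15 in bulk, a difference of -3.19 (SE 0.45, limma adjusted p = 0.00701), and Alas2, an enzyme of heme synthesis in red cells, fell by 2.60 (SE 0.36). The globin genes are near-identical copies whose probes may read each other's RNA. Hbb-bt, another, had -2.52 and was not called without mouse 2 (adjusted p = 0.0543). Of 12 neutrophil genes tested 6 fell and 0 rose, with a median of -1.16, and 3 of the calls stood without mouse 2. Ngp, a granule protein of neutrophils, had -0.60, 1.53, -0.75 and -0.01 in EC fractions, against 1.28, 3.25, 2.19 and 3.17 in bulk, a difference of -2.43 (SE 0.32). Its levels overlapped between fractions, but each mouse had less in EC. Camp, another granule gene, fell by 1.98 (SE 0.37) and held with each mouse left out, whereas Mpo (-2.09) and Ltf (-1.78) were not called without mouse 2, with adjusted p of 0.0652 and 0.0595, and Mpo was not without mouse 3 (0.0615). S100a9, a main calcium-binding protein of neutrophils, had -0.43 and was not called.

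Mast cell and eosinophil genes parted company. Cpa3, Mcpt4, Tpsb2 and Cma1, proteases of mast cell granules, and Fcer1a, the IgE receptor chain, rose by 2.18 to 3.27. Cpa3 had levels of -0.04, 2.46, 2.47 and 0.45 in EC fractions, against -2.92 to -1.28 in bulk, without overlap. The eosinophil genes Prg2, Ccr3, Ear2 and Siglecf fell, by 2.63, 1.28, 1.26 and 0.97. None of the 9 was called without mouse 2, where Cpa3 had 2.88 (limma adjusted p = 0.0606) and Prg2 -1.89 (adjusted p = 0.0835). Of 8 dendritic cell genes 2 rose and 2 fell, Itgax, also on macrophages, by 2.13 and Batf3 by 1.26, and Flt3 by 1.59 and Clec9a by 0.90, and none of these 4 was called without mouse 2. Over all genes tested 9.85% were called higher and 6.21% lower, so counts in so short a list say little. Of 6 B and plasma cell genes Jchain fell by 2.40 (SE 0.58), with -0.33 in mouse 2 and adjusted p of 0.0646 without mouse 1, and Mzb1 fell by 1.79, with adjusted p of 0.0658 and 0.092 without mouse 1 and mouse 2. Cd79a and Ms4a1, the B cell antigens, had -0.17 and 0.30 and were not called.

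Tumour cell markers fell in part. Of 17 epithelial genes tested 7 fell and 0 rose, with a median of -1.32, or -0.40, -0.44, -1.73 and -2.38 in mice 1 to 4. Epcam, the epithelial adhesion molecule, had levels of 3.67, 3.68, 2.53 and 1.83 in EC fractions, against 4.31, 4.44, 4.85 and 4.43 in bulk, a difference of -1.58 (SE 0.39, limma adjusted p = 0.0356). The EC arrays were the lower ones without overlap, by less in mice 1 and 2 than in mice 3 and 4, and the level remained above the array's 75th percentile in every EC fraction. Without mouse 2 the difference was -1.85 (adjusted p = 0.0672), and 0 of the 17 were called. Epcam was not called without mouse 3 or mouse 4 either (adjusted p = 0.092 and 0.0633). Cldn4, a tight junction protein, had -1.77 (SE 0.36) and Krt14, a basal keratin, -1.45 (SE 0.33), with adjusted p of 0.0592 and 0.0608 without mouse 2. The mean level of the 17 genes was 2.83, 2.45, 1.39 and 0.86 on the EC arrays, against 3.19, 2.94, 3.05 and 2.92 on the bulk arrays; what part tumour cells in the EC fractions had in the other results was not tested. Platelet genes, which the selection could also enrich, gave 2 rises of 9 tested, Selp and Pf4, a chemokine of platelets and macrophages, at 2.29 (SE 0.46), the call for Pf4 being lost without mouse 2 (adjusted p = 0.08), while Itga2b, the defining integrin chain of platelets, had -0.20 and Gp9 -1.62, neither called. Tnnt3, of skeletal muscle, was the only called gene of 6 tested there, with -1.68 (adjusted p = 0.0124, and 0.0557 without mouse 2). Beside 9.85% called higher and 6.21% lower over all genes tested, the platelet and muscle counts say little about these cells.

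**Figure D4:**
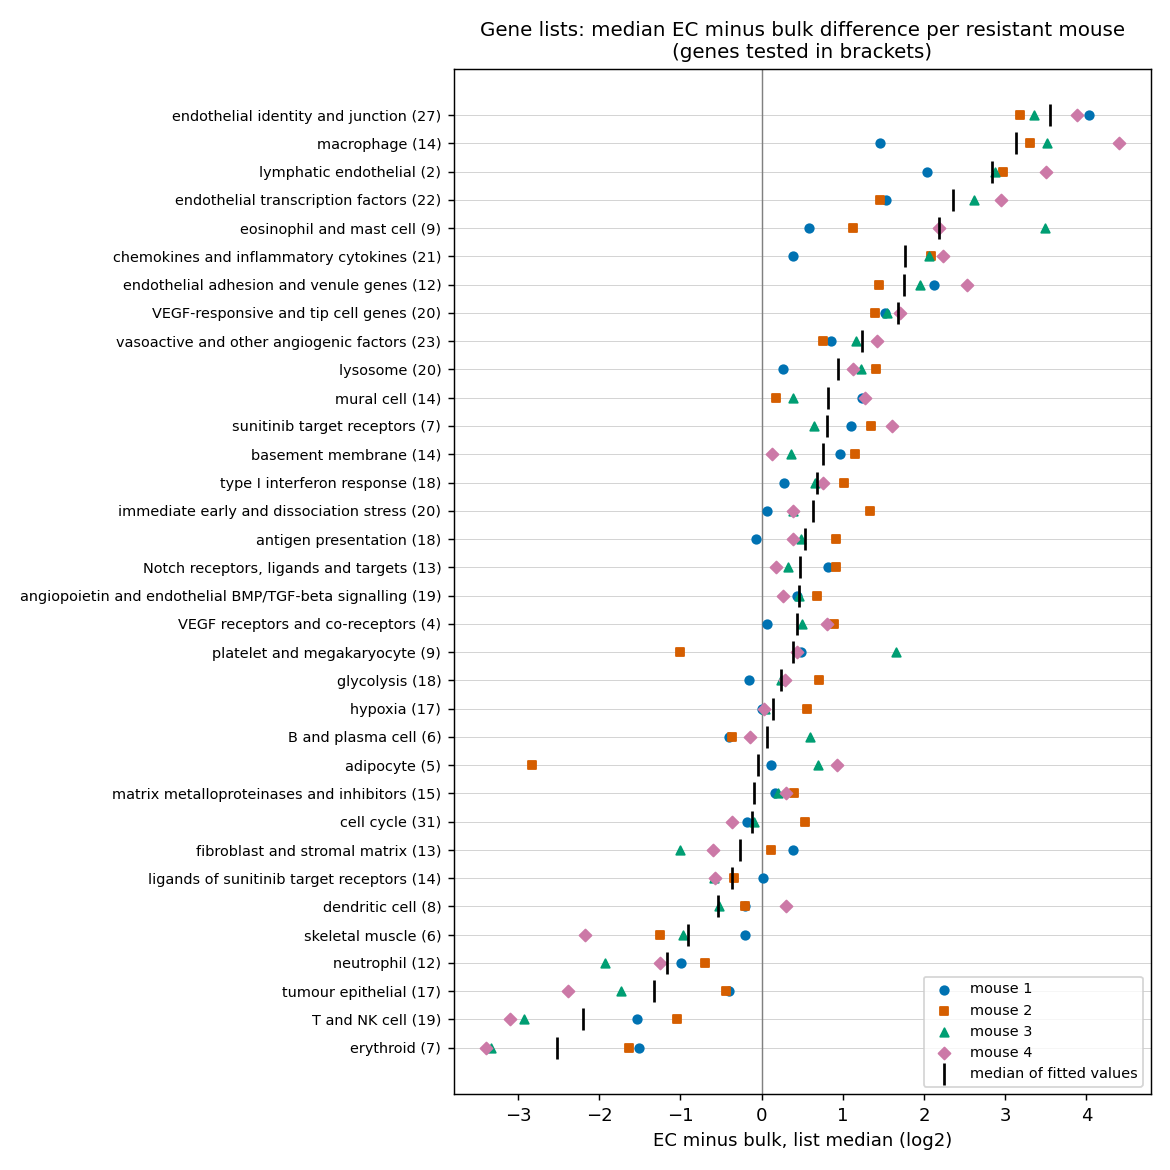
Median EC minus bulk difference (log2) of each of 34 gene lists in each resistant mouse (symbols) and over the fitted values (black bars), with the number of genes tested in brackets. The endothelial list lies at 3.18 to 4.03 in all mice, the macrophage list spreads from 1.46 in mouse 1 to 4.40 in mouse 4, and the T and NK cell and erythroid lists lie below 0 in each mouse.

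The remaining lists, of programmes that cut across cell types, had medians between -0.12 and 0.68, against 3.55 for endothelial identity. Over all genes tested, 9.85% were called higher and 6.21% lower. None of 31 cell cycle genes was called in limma's fit of all mice or without mouse 2, with a median of -0.12 and Mki67, a proliferation marker, at 0.36. Of 17 hypoxia genes 3 rose, Adm, Angptl4 and Vegfa, and the collagen crosslinking enzyme Lox fell, and the calls for Angptl4, Vegfa and Lox were lost without mouse 2. Leaving out mouse 2 changes no value of Adm, which has no difference in that mouse. Of 18 glycolysis genes 2 rose: Pfkfb3, which drives glycolysis in sprouting endothelium, by 1.94 (SE 0.26) on its brightest probe, with 1.37 (SE 0.39) on the other, and Slc16a3, a lactate exporter, by 1.07, which was not called without mouse 2, 3 or 4 (adjusted p between 0.0836 and 0.186). Of 18 interferon response genes 7 rose and 0 fell, 3 were called without mouse 2, with Oas2, Irf7, Isg15 and Oas1a lost, and Oasl1 (2.12, SE 0.32) and Rsad2 (1.81, SE 0.28) held with each mouse left out. Of 18 antigen presentation genes 2 rose, the class II chains H2-Eb1 by 1.39 and H2-Ab1 by 1.17. Neither was called without mouse 2 (limma adjusted p = 0.0642 and 0.0779) or without mouse 3 (0.057 and 0.0977). A count of 2 of 18, in this list as in glycolysis, was near the 9.85% of all genes tested. In the immediate early and dissociation stress list 3 of 20 rose, Egr2, Hspa1a and Klf6, 1 fell, Fosl1, and none was called without mouse 2 (adjusted p between 0.0606 and 0.0783). Of 15 metalloproteinase genes 6 rose and 1 fell, Mmp11, and of the rises Timp3, an inhibitor, at 1.71 (SE 0.25) and Mmp15 were called without mouse 2 (Mmp15 not without mouse 3, adjusted p = 0.062), while Mmp19 at 2.27 (SE 0.42), Mmp7 at 1.97 (SE 0.34), Mmp12 at 1.85 and Mmp13 were not.

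Whether the fractions differed otherwise in resistant tumours than in other tumours was asked with limma on the within-mouse differences of 12 mice and 18280 genes. Against vehicle mice, 2 genes had a higher difference in resistant mice, 0.0109% of those tested, and 53 a lower one, 0.29%, and without resistant mouse 2 the calls in either direction were 435, 2.38%. Against sensitive mice, 126 had a higher one, 0.689%, and 125 a lower one, 0.684%, and without resistant mouse 2 they were 999, 5.46%. Without resistant mouse 1, 3 or 4 the calls were 156, 26 and 73 against vehicle and 795, 2 and 26 against sensitive mice, so these counts rest on single mice. In the other tumours the EC arrays lay on another slide than the bulk arrays and had 79.9 to 86.4% of probes well above background, against 46.1 to 52.8% on resistant EC arrays, so slide cannot be told apart from the difference between fractions in those mice.

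Calls among endothelial identity genes were few, as they were over all genes tested. The shares over all genes were 0.0109% higher and 0.29% lower against vehicle mice, and 0.689 and 0.684% against sensitive mice. In lists of this length a count of 0 or 1 therefore says little. Against sensitive mice, 3 of 22 endothelial transcription factors, 2 of 14 Notch genes and 2 of 14 mural genes were called lower. Against vehicle mice, 3 of 11 eosinophil and mast cell genes were. In these lists 0 genes were called higher in either test. These shares are above those over all genes, but the counts of both tests rest on single mice. Of 28 identity genes tested, 0 were called against vehicle mice and 1 lower against sensitive mice, with median EC minus bulk differences of 3.53 in resistant, 5.68 in sensitive and 4.14 in vehicle mice. Sox17 differed by 4.43 in resistant mice, against 6.81 in vehicle mice. In sensitive mice no bulk array had it well above background, and it was at least 265-fold higher in EC fractions, with a fitted difference of 9.48. The resistant minus sensitive value was -5.06 (SE 1.01, limma adjusted p = 0.0459). That size rests on sensitive bulk signal near background. Sox7 had 3.09 in resistant mice, against 7.08 in sensitive mice, a resistant minus sensitive value of -3.99 (SE 0.83, adjusted p = 0.0468). Macrophage genes gave 0 calls in either test, which is near the same shares, with medians of 3.09 in resistant, 2.35 in sensitive and 1.56 in vehicle mice.

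Called differences between treatments also included single genes of other kinds. Cdkl1, a kinase related to the cyclin-dependent kinases, had EC minus bulk differences of 3.66, 3.20, 3.68 and 3.39 in resistant mice, against 1.46, 1.97, 1.74 and 0.95 in sensitive mice and 1.33, 1.06, 1.74 and 0.99 in vehicle mice. Every resistant mouse lay above all others, also mouse 2, with a resistant minus vehicle value of 2.21 (SE 0.27, limma adjusted p = 0.0168) and a resistant minus sensitive value of 1.95 (SE 0.27, adjusted p = 0.0261); its probe was well above background on 1 resistant bulk array. Pou3f1, a POU factor, had 0.81, 2.21, 1.89 and 2.52 in resistant mice, against -0.37, 0.33, -0.05 and -0.26 in sensitive mice and -0.57, -0.09, -0.13 and -0.19 in vehicle mice, with a resistant minus vehicle value of 2.10 (SE 0.34, adjusted p = 0.0307). It was the other of the 2 genes with a higher difference than in vehicle mice. Against sensitive mice 0 genes were called higher without resistant mouse 3, so Cdkl1 was not called there. Against vehicle mice 1 gene was called higher without resistant mouse 3, so Cdkl1 and Pou3f1 did not both hold. With levels scaled to the 75th percentile over probes detected on all arrays, 0 genes were called higher against vehicle mice. Both genes were picked by these tests, so the separation of their mice is no further support.

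Lower differences in resistant mice included immune genes. Foxp3 had -1.68, -3.72, -3.32 and -4.03 in resistant mice, against 0.44, 0.73, 0.63 and 0.45 in sensitive mice and 0.45, 1.46, 1.19 and -0.10 in vehicle mice, with a resistant minus vehicle value of -3.94 (SE 0.49, limma adjusted p = 0.0168). Prg2, the eosinophil major basic protein, had -0.40, -4.83, -3.01 and -2.27 in resistant mice, against 1.13, 1.66, 2.36 and 1.97 in sensitive mice and 2.70, 5.98, 1.82 and 2.38 in vehicle mice. Resistant mice lay below 0 and all others above it. The resistant minus vehicle value was -5.85 (SE 0.99, limma adjusted p = 0.0376). The resistant minus sensitive value was -4.41 (SE 0.99, adjusted p = 0.0528), which did not pass. Prg2 was well above background on 2 of the 4 resistant EC arrays, and Foxp3 on 1. The largest resistant difference of Prg2, -4.83, was in mouse 2, whose bulk level of 0.14 was the highest of the resistant bulk arrays. Serpinb10, a serpin of bone marrow cells, Ston1, an endocytic adaptor, and Mrgprb4, a sensory neuron receptor, had resistant minus vehicle values of -4.81, -3.33 and -4.29, and none of the 3 was well above background on any resistant EC array. In resistant mice they were at least 1.33-fold, 1.37-fold and 1.37-fold lower in EC fractions. Hey2, a Notch target of arteries, passed the test against vehicle mice (adjusted p = 0.0432), but it was not well above background on any resistant EC or vehicle bulk array. It was at least 1.64-fold higher in EC fractions of vehicle mice, and in resistant mice no bound can be given.

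**Figure D5:**
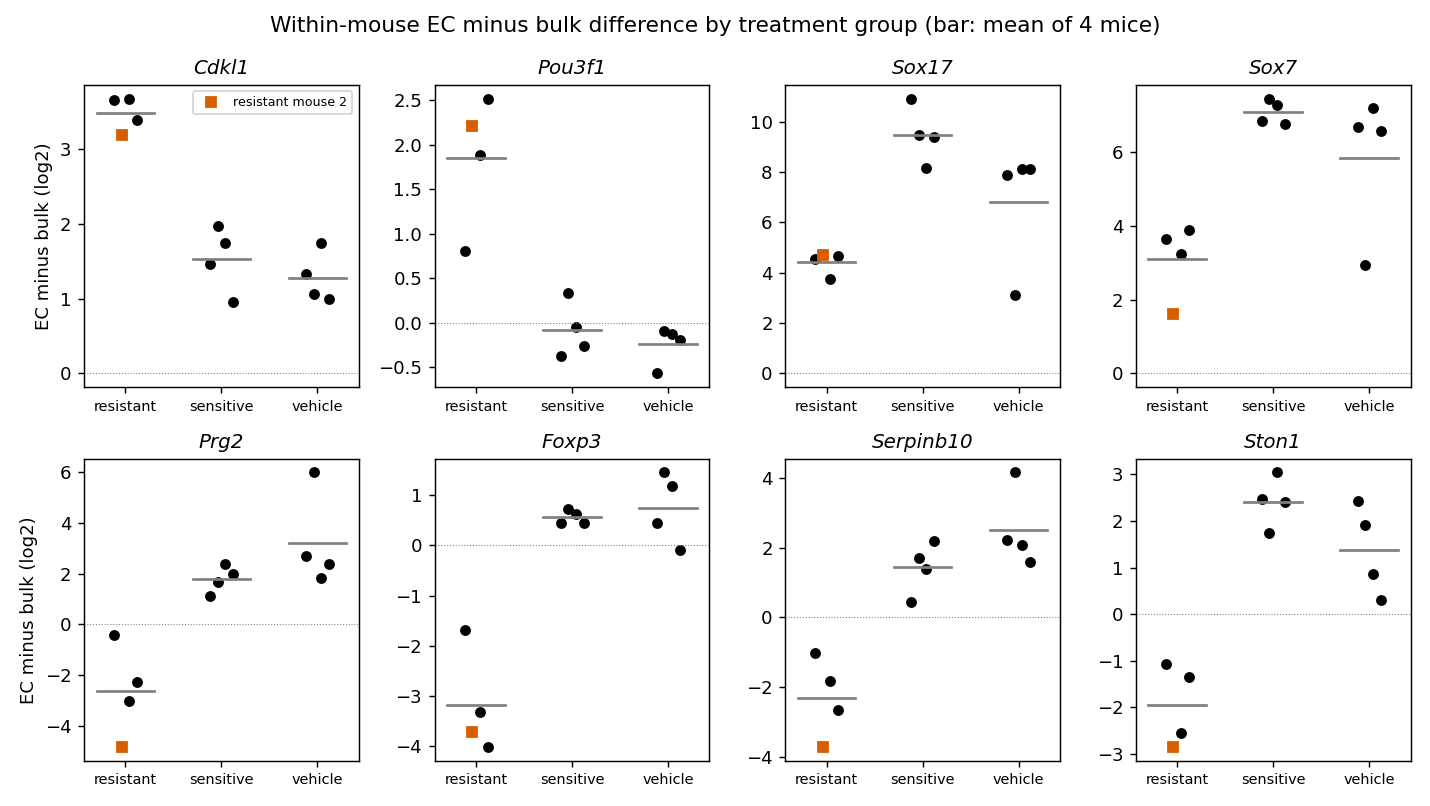
EC minus bulk difference (log2) of 8 genes in each mouse, with resistant mice on the left, sensitive mice in the middle and vehicle mice on the right, a bar at the mean of 4 mice and resistant mouse 2 as a square. Resistant mice lie above all others for Cdkl1 and Pou3f1 and below all others for Prg2, Foxp3, Serpinb10 and Ston1, while for Sox17 and Sox7 they lie below the sensitive mice and overlap with a vehicle mouse. The 8 genes were picked from those called in the tests between treatments.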

How the data were processed

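RNA was hybridised to single-colour (Cy3) Agilent mouse arrays. Per the file headers, the deposited scanner files hold intensity values of Agilent Feature Extraction 10.7.3.1; signals had background and spatial trend removed per array, with no scaling across arrays. Feature Extraction 9.1 is named in the submitters' processing notes. The authors also deposited a series-wide table of linear intensity, normalised in R in a way not stated, with column medians between 120 and 125; its centring is unknown. Spots flagged as outliers were left out and spots of a probe averaged, giving 55681 probes from 59305 spots. Probes were named by RefSeq accession through RefSeq genes (GRCm38.p6): 26582 were named, for 20145 genes. The files carry another build, so no probe coordinates are given.

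The level is log2 of the processed signal minus the array's 75th percentile. Genes (the brightest probe over all arrays) well above background on at least 4 of the arrays fitted entered a limma fit (version 3.58.1, with R 4.3.3 and data.table version 1.17.8) on within-mouse differences, by lmFit and eBayes with Benjamini-Hochberg adjustment over all genes tested and a threshold of 0.05. Pairing follows the mouse numbers in the labels, where both fractions come from the same tumour. Correlations of their deviations from the fraction means were 0.243, 0.166, 0.213 and 0.092 in mice 1 to 4. Between fractions of different mice they were -0.279 to 0.195. The highest of these was between bulk of mouse 4 and EC of mouse 1, so these values do not settle the pairing of mouse 4. Mice are separate animals per the labels, and their number limits the precision. An exact permutation of 4 pairs cannot give a two-sided p under 0.125, so none is used. SE are limma's. No spot was saturated.

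Named genes are the 12 largest rises and falls called with the same sign in all mice, up to 4 leading called members of each list (where none was called, 3 with the smallest p), Pecam1, Cdh5, Kdr, Flt1, Flt4, Pdgfra, Pdgfrb, Kit, Csf1r and Vegfa, the 8 largest called rises and falls of each test against other mice (where fewer than 5 were called, also 3 with the smallest p), and the 8 largest without mouse 2; other list members are named by list and counts. Members, lists and rules were chosen with earlier results of these data known. Normexp used median signals, since the files give no mean signal. The fit was tested on simulated data. Figures were drawn in Python 3.11.15 with matplotlib 3.10.9.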

Additional observations from a re-analysis of the deposited data

Results flagged for a closer look

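In groups of 4 arrays or mice, 171 sets of values were examined for a value far from the other 3, and 16 were found. The rule flags about 1 in 20 independent sets by chance. These sets share arrays and genes and include measures of a bulk array already known to stand apart, so no excess can be read from the count. Mouse 2 was the distant one in 9, mouse 1 in 4, mouse 3 in 3 and mouse 4 in 0. The bulk array of mouse 2 had 83.2% of probes well above background, a negative control SD of 15.5 and a detrending residual of 9.29, against 0.995 to 1.53 on the other bulk arrays. Mouse 2 was also distant in the EC minus bulk difference of Pecam1 (1.22), Tek (-0.07), Edn1 (1.30), Notch4 (1.77) and Klrb1c (-4.33) and in the hypoxia list median (0.56). Mouse 1 was distant in Hexa (1.11), Il6 (1.55), Pfkfb3 (1.36) and the chemokine list median (0.38). Mouse 3 was distant in Flt3 (-2.79), Ramp2 (3.68) and Sox17 (3.77).

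The difference between fractions was itself tested between treatments with limma. The resistant minus vehicle value was 2.21 for Cdkl1, 2.10 for Pou3f1, -3.31 for Clec4g, -3.94 for Foxp3, -4.02 for Gm11563, -3.35 for Hey2, -4.29 for Mrgprb4, -5.85 for Prg2, -4.81 for Serpinb10 and -3.33 for Ston1. The resistant minus sensitive value was 1.72 for Acsm3, 1.95 for Cdkl1, 1.70 for Elk4, 1.65 for Fbl, 1.92 for Fxyd2, 2.42 for Gdf3, 1.93 for H4f16 and 1.94 for Pou3f1. It was -3.75 for Foxp3, -4.07 for Mrgprb4, -3.79 for Ndfip2, -3.73 for Serpinb10, -5.06 for Sox17, -3.99 for Sox7, -4.37 for Ston1 and -3.75 for Zfp711. For Prg2 it was -4.41, and the test did not pass (limma adjusted p = 0.0528), although all resistant mice lay below 0 and all sensitive mice above it. Acsm3 was not well above background on any resistant array, so no resistant difference can be given for it, and Clec4g, Gm11563, Hey2, Mrgprb4, Ndfip2, Serpinb10 and Ston1 were not on any resistant EC array. The sizes given for these genes rest on signal near background. Foxp3 and Prg2 were well above background on 1 and 2 of the 4 resistant EC arrays, so their sizes rest in part on such signal. The other probes of Elk4 gave 1.06 and -0.53 for the EC minus bulk difference in resistant mice.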

How the results depend on the processing

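The number of genes called between EC and bulk fractions depended strongly on the fit. Against 2287 as reported, limma called 758 to 2135 with a mouse left out (758 without mouse 2 and 1309 without mouse 3), 953 after quantile normalisation, 5545 with all 12 mice in the fit, 10278 with array weights (0.143 for mouse 2 and 10.4 for mouse 3), 1329 over all probes and 73 with no filter on dim probes, where the dim probes are among those fitted. Chosen after seeing the data, a variance trend gave 1472, of which 48 were lower, and no shrinkage of variances gave 0, with 3439 genes at an unadjusted p under 0.05. The other settings gave 1976 to 3171 calls. The 75th percentile over probes detected on all arrays shifted the median of all genes to -0.20 and the share of rises to 48.5%, against 61.3%. The median of the endothelial identity list was 3.38 to 3.80 with a mouse left out. Without the replicate block 2391 genes were called. Pdgfrb, not called, turned to -0.28 with array weights.

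Against vehicle mice (55 calls), leaving out a resistant mouse gave 26 to 435 (156 without mouse 1), quantile normalisation 158, the deposited values 184 and genes above background on all 24 arrays 5. Against sensitive mice (251 calls), leaving out a resistant mouse gave 2 to 999 (795 without mouse 1 and 26 without mouse 4), the fit without the replicate block 569 and genes above background on all 24 arrays 739. The causes were not tested. The 4 mice, and signal near background in the EC fractions, limit what could be called.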
